A study of Bos taurus with 32 samples.

Results

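The miR-130 and miR-301 family of cattle was followed in fat of beef steers on 2 diets. The members were taken by name and are bta-miR-130a, bta-miR-130b, bta-miR-301a, bta-miR-301b and bta-miR-454, 5 of the 672 miRNAs of the array. MiRNAs are short RNAs that pair with messenger RNAs, mostly through the seed near their 5′ end, and lower the protein made from them. The members of this family are known to share a seed, and miR-130a and miR-130b are known to repress PPARG, the nuclear receptor that drives fat cell formation. In the RefSeq cattle annotation, assembly ARS-UCD2.0, MIR130B lies next to MIR301B, MIR454 lies next to MIR301A with SKA2 spanning both, and MIR130A stands apart from the other members, beside YPEL4.

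The steers were crossbred Hereford and Aberdeen Angus, castrated males that were yearlings at the start, 8 fed a control diet of barley grain and silage and 8 fed a high fat diet in which flaxseed replaced a portion of the grain. Backfat, a subcutaneous depot, and perirenal fat, a visceral depot, were taken from each steer at slaughter, which made 4 groups of 8 arrays, 32 arrays in all. Each array measured total RNA of 1 sample in 1 colour, and the value of a miRNA was its background-subtracted intensity summed over its probes. The tissue is whole fat, so fewer cells of a type and less miRNA per cell cannot be told apart.

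Every group had a slide of its own and every diet a scan session of its own, so a difference between groups cannot be told apart from one between slides, nor a difference between diets from one between sessions. High fat arrays were brighter, with a summed intensity of 96888 to 366714 against 26021 to 79290 for control arrays, and had 169 to 259 against 115 to 176 miRNAs called detected. The signal of the labelling spike-in probes ran from 1650 to 3520 against 2791 to 4947. All 3 miRNAs listed as adipocyte markers were detected in every group, and miR-196a, known to mark depots, was detected on all 8 arrays of each visceral group, with a scaled intensity of 0.0908 to 0.191 in high fat visceral against 0.00397 to 0.00801 in high fat subcutaneous fat, and on 3 of 8 control subcutaneous arrays, of which the highest, at 0.186, overlapped the control visceral range of 0.151 to 0.313. Each intensity was divided by its array's 75th percentile, computed from the 91 miRNAs that all 32 arrays detected, and log2 of the quotient is called the scaled level.

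The members fell into 3 kinds by their detection calls. Bta-miR-130a was detected on 7 of 8 control subcutaneous arrays, on 5 of 8 control visceral arrays and on all 8 arrays of both high fat groups. Bta-miR-130b and bta-miR-301a were detected on 0 of 8 arrays of each control group, on 8 of 8 high fat subcutaneous arrays and each on 4 of 8 high fat visceral arrays. Bta-miR-301b and bta-miR-454 were detected on 0 of the 32 arrays. Of 9 comparisons of detection between diets or depots, the change from 0 to 8 arrays in subcutaneous fat passed for bta-miR-130b and for bta-miR-301a (Fisher's exact test, two-sided, adjusted p = 0.000699 for each). The change from 0 to 4 arrays in visceral fat did not pass for either member (adjusted p = 0.115, Fisher's exact test), nor did 8 against 4 between the high fat depots (adjusted p = 0.115, Fisher's exact test). The share of all miRNAs that would pass the same test is not given, so these passes are not shown to be particular to the members. The median number of miRNAs detected was 159 on the control subcutaneous arrays and 244 on the high fat subcutaneous arrays. A detection call depends on the brightness of the array, and the lowest scaled level called detected had a median of -6.79 on the control subcutaneous arrays and -9.52 on the high fat subcutaneous arrays. The part of this limit in the detection calls was not tested. For the fits, scaled levels of arrays without a call, and those under it, were set to a common floor of -7.22, the median of these lowest levels for the 32 arrays.

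Bta-miR-130a, the member measured in all 4 groups, was higher on the high fat diet in both depots. On the control diet its total intensity in subcutaneous fat was 5.67 at the lowest, 10.4 at the median and 21.4 at the highest of the 7 arrays with a call, and steer 405 had none. In control visceral fat it was 5.05, 14.2 and 18.7 over the 5 arrays with a call, and steers 108, 111 and 308 had none. On the high fat diet subcutaneous fat had 241, 486 and 827 and visceral fat 145, 298 and 648. The dimmest high fat array was thus far above the brightest control array in each depot, while the 2 depots of a diet overlapped.

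**Figure D1:**
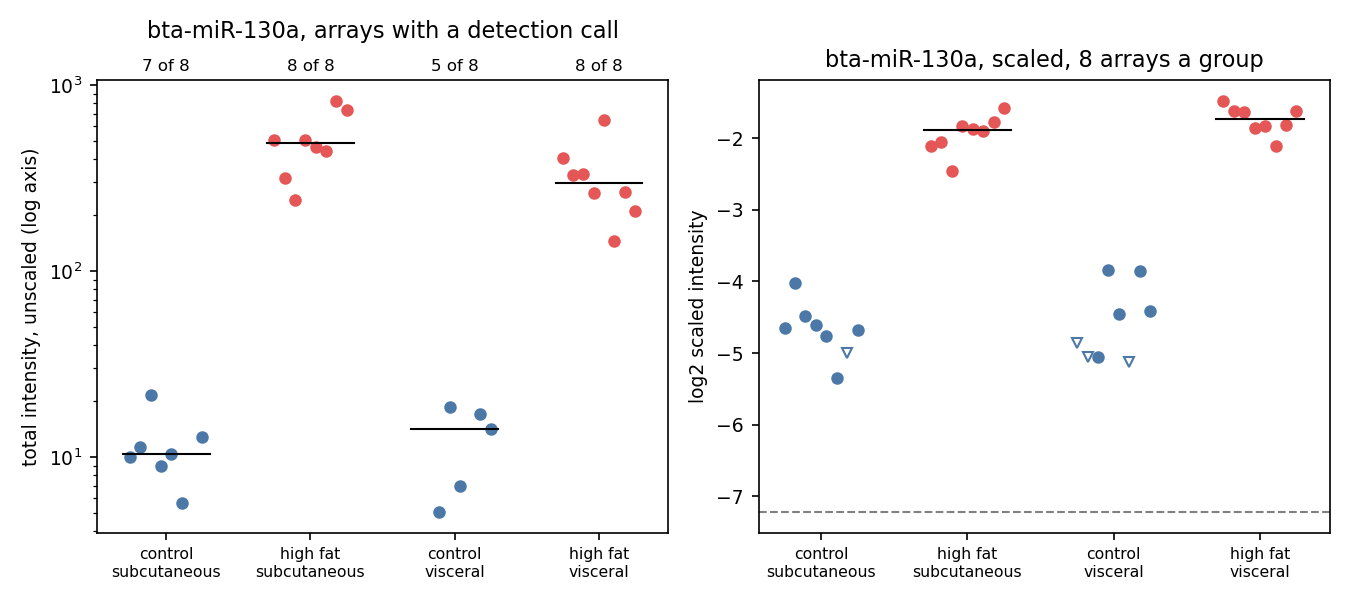
Intensity of bta-miR-130a on each array, in 4 groups of 8. Left, the unscaled total intensity of the arrays with a detection call (log axis), with the number of such arrays above and the median of those arrays as a line, where the lowest high fat arrays are at 241 and 145 and the highest control arrays at 21.4 and 18.7. Right, the scaled level on all 8 arrays, with open triangles at the bound of an array without a call (the higher of its detection limit and its own probe signals), the common floor of -7.22 dashed and the median as a line in groups with 8 calls.

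After scaling the 2 diets still did not overlap. The scaled level of bta-miR-130a ran from -2.46 to -1.59 with a median of -1.89 in high fat subcutaneous fat, and its mean was -1.95 ± 0.26 (SD, n = 8). In control subcutaneous fat the arrays with a call ran from -5.35 to -4.02, and with the array without a call set to the common floor of -7.22 the mean was -4.97 ± 0.98 (SD, n = 8). The difference was 3.02 on the log2 scale (SE 0.45, limma adjusted p = 5.42e-07). In visceral fat the high fat arrays ran from -2.11 to -1.47 around a median of -1.73, with a mean of -1.75 ± 0.20 (SD, n = 8), and the control arrays with a call from -5.05 to -3.84, with a mean of -5.41 ± 1.55 (SD, n = 8) when those without a call stood at the floor. That difference was 3.66 (SE 0.45, limma adjusted p = 1.59e-08). With each array without a call set to its bound in place of the floor, which is the higher of its own detection limit and the summed signal of its probes for the miRNA, bta-miR-130a was in subcutaneous fat at least 6.71-fold higher on the high fat diet and at least 7.13-fold higher in visceral fat. These folds are 2.75 and 2.83 on the log2 scale, so that part of the larger visceral difference above is set by the floor.

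In subcutaneous fat 2 of the 3 members tested, bta-miR-130a and bta-miR-130b, were called higher on the high fat diet, where 76.0% of the 233 miRNAs tested were called, 41.6% higher and 34.3% lower. In visceral fat 1 of the 3, bta-miR-130a, was called higher, where 71.7% of all tested were called, 42.1% higher and 29.6% lower. The diets did not overlap for 33.0% (higher) and 19.7% (lower) of the miRNAs tested in subcutaneous fat and for 28.3% and 18.0% in visceral fat. The difference of bta-miR-130a ranked 21 from the highest of 233 in subcutaneous fat and 13 in visceral fat, and the median difference over all tested was 0.10 and 0.17. The median over the 3 members was 1.01 in subcutaneous and 0.15 in visceral fat, and 2 of the 5 members were not tested because they were not detected. Bta-miR-130b and bta-miR-301a were tested through their detection on high fat arrays alone.

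**Figure D2:**
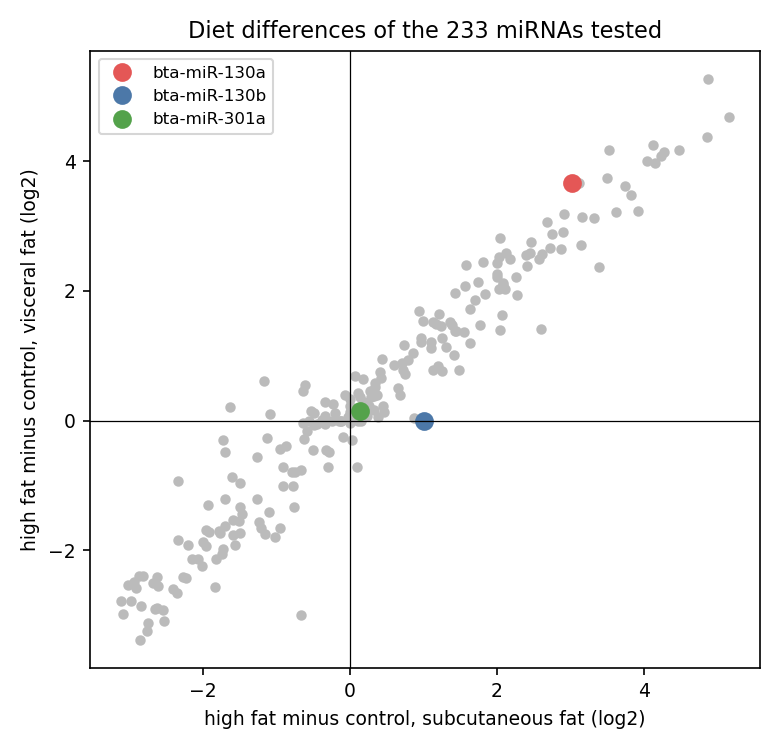
Difference between the diets (high fat minus control, log2 scaled level) in subcutaneous fat (x axis) and visceral fat (y axis) for the 233 miRNAs tested, each a grey point. Bta-miR-130a lies at 3.02 and 3.66 in the upper right, bta-miR-130b at 1.01 and 0.00, since all its visceral values stand at the common floor, and bta-miR-301a near the origin at 0.14 and 0.15.

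The size of the bta-miR-130a difference depended on how the arrays were brought to 1 scale. It was 5.72 and 5.54 without scaling, 5.93 and 5.96 after scaling to the spike-ins, and 1.58 and 2.57 in the log2 values that the authors deposited, and it passed the test in these settings. In the deposited values the high fat arrays are scaled while most control arrays are not, so differences between diets there mix the 2 scales. The difference of bta-miR-130a did not pass after normexp background correction, with each array scaled to its 75th percentile over the same 91 miRNAs. It was 0.19 in each depot there (limma adjusted p = 0.146 and 0.145). With the percentile taken over all 672 miRNAs it was -0.75 in subcutaneous fat and 0.44 in visceral fat, and did not pass (limma adjusted p = 0.544 and 0.724). On 15 arrays, all on the control diet, that percentile was the placeholder of an undetected miRNA. Relative to the median of all miRNAs tested, bta-miR-130a was higher on the high fat diet in every setting that tested it, by 1.64 to 3.39 in subcutaneous fat and by 1.79 to 4.07 in visceral fat over the alternatives.

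**Figure D3:**
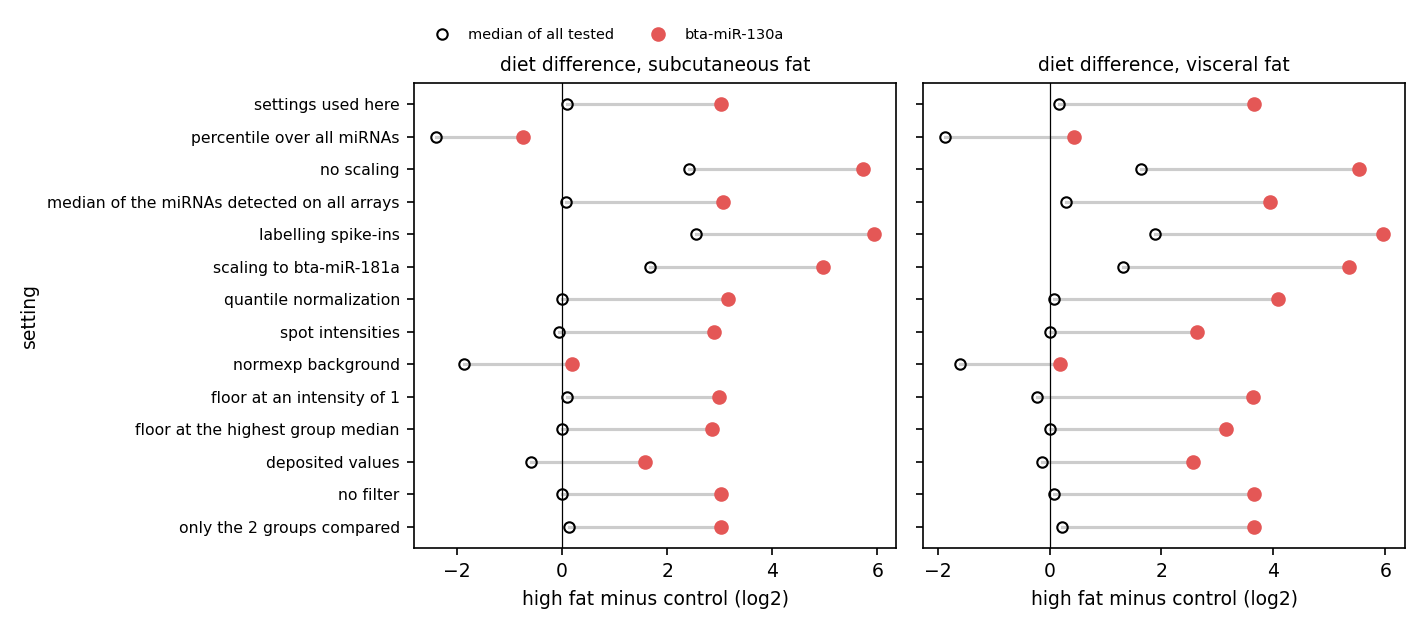
Diet difference of bta-miR-130a (red) and the median difference of all miRNAs tested (open circles) under each way of scaling, background correction, floor and filter (rows), in subcutaneous fat (left) and visceral fat (right), in log2 units. The red point lies to the right of the open circle in every row, while both move together between rows, from -0.75 to 5.93 in subcutaneous fat for bta-miR-130a.

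Both probes of bta-miR-130a, each printed in 10 spots per array, had a higher unscaled signal on the high fat arrays. The brighter probe had a signal of 147.7 to 494 on the high fat subcutaneous arrays against 0.767 to 12.8 on the control arrays, and the dimmer probe 93.8 to 333 against 0.216 to 8.64. In visceral fat the ranges were 86.3 to 380 against 2.39 to 11.3 and 58.8 to 268 against 1.49 to 7.37. Neither probe overlapped between diets in either depot (exact permutation test, two-sided, adjusted p = 0.000565 over 40 probe comparisons, the smallest raw p for 8 arrays against 8 being 0.000155). On the high fat arrays the log2 ratio of the 2 probes lay between 0.50 and 0.66, and Feature Extraction gave an error of 7.20% to 7.44% of the intensity. On the control arrays the ratio lay between 0.26 and 1.83, and the error was 11.4% to 28.4%, so the control values are the less precise side of the comparison.

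Between depots bta-miR-130a did not differ past the test on either diet. None of the 3 members was called between the control depots, where 18.9% of all miRNAs tested were called, 6.87% higher and 12.0% lower in visceral fat. For bta-miR-130a the visceral minus subcutaneous difference was -0.44 there (SE 0.45, limma adjusted p = 0.672) and on the high fat diet 0.20 (SE 0.45, limma adjusted p = 0.828), with 4 of the 8 high fat steers higher in visceral fat. The SE is shared by the 4 groups and holds the spread of control values at the floor. The SDs were 0.98 and 1.55 in control and 0.26 and 0.20 in high fat subcutaneous and visceral fat. The high fat depot difference passed in 0 of 18 alternatives. In the order of the group means both high fat depots stood above both control depots, and only the step between the diets exceeded the spread. The order of the control depots was set by the floor, since their means were -4.70 ± 0.39 (SD, n = 8) in subcutaneous and -4.58 ± 0.53 (SD, n = 8) in visceral fat with arrays without a call at their bound. The difference between the diets did not itself differ between depots (interaction 0.64, SE 0.64, limma adjusted p = 0.788). Without scaling the high fat depot difference was -0.67, which did not pass either. Over the 8 high fat steers the levels in the 2 depots were not related (Pearson r = -0.32, exact permutation p = 0.435; Spearman rho = -0.31, exact permutation p = 0.462; adjusted p = 0.544 and 0.770 over 5 relations, r = -0.69 without the 2 steers farthest from the median).

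Bta-miR-130b was measured on the high fat diet alone. Its total intensity in high fat subcutaneous fat was 15.8 at the lowest, 25.4 at the median and 37.3 at the highest, and its scaled level ran from -6.64 to -5.15 around a median of -6.29. In high fat visceral fat the 4 arrays with a call, of steers 103, 202, 204 and 302, had 4.54 to 8.63, or scaled levels of -8.05 to -7.48. All 8 subcutaneous arrays were above the visceral arrays, also where a visceral array without a call is placed at its bound, of which the highest was -6.90.

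Between the depots of the high fat diet the scaled level of bta-miR-130b was thus lower in visceral fat. With the common floor the means were -6.21 ± 0.47 (SD, n = 8) and -7.22, a difference of -1.01 (SE 0.12, limma adjusted p = 2.26e-07), and with arrays without a call at their bound bta-miR-130b was at least 2.97-fold lower in visceral fat. It was the 1 member called of the 3 tested in that comparison, where 26.2% of all miRNAs tested were called, 11.6% higher and 14.6% lower in visceral fat, and where 6.01% (higher) and 3.43% (lower) did not overlap. Both of its probes differed between these depots in unscaled signal (exact permutation test, two-sided, adjusted p = 0.000565 for each over 40 comparisons). The brighter one had 11.4 to 27.0 in subcutaneous against 0.896 to 8.63 in visceral fat, and the dimmer one 4.40 to 10.3 against -0.616 to 3.44. These signals hold the brightness of the array as well. The median summed intensity was 239868 on the high fat subcutaneous arrays and 151704 on the high fat visceral arrays. The part of this brightness in the probe differences was not tested. The limma call of bta-miR-130b was lost with the deposited values, at -0.12, and with the floor at the highest group median, at -0.09, since that floor lies above most of the values, and after normexp correction the difference was 0.46 in the other direction. After that correction the median of all miRNAs tested was 0.54, and bta-miR-130b lay slightly below it.

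**Figure D4:**
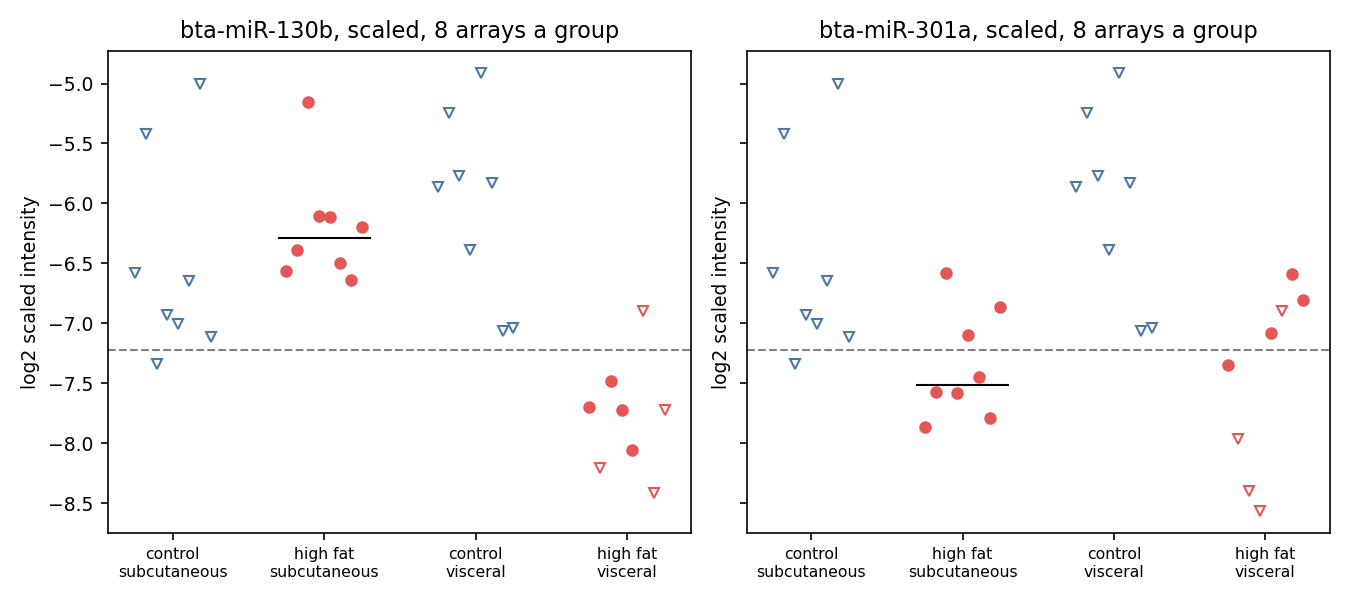
Scaled level of bta-miR-130b (left) and bta-miR-301a (right) on each array in 4 groups of 8. Filled circles are arrays with a detection call, open triangles stand at the bound of an array without one, the dashed line is the common floor of -7.22 and the black line the median of the group with 8 calls. The high fat subcutaneous arrays of bta-miR-130b, from -6.64 to -5.15, lie above every high fat visceral array, while those of bta-miR-301a overlap, and the control triangles reach up to -4.91.

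A comparison within each array needs no scaling between arrays. On the high fat diet the log2 ratio of bta-miR-130b to bta-miR-130a had a mean of -4.26 ± 0.66 (SD, n = 8) in subcutaneous fat and of -6.03 ± 0.58 (SD, n = 8) in visceral fat, where arrays without a call enter at their bound. The ratio compares the depots and does not measure which of the miRNAs is more abundant. It was at least 3.41-fold lower in visceral fat and lower in 8 of 8 steers (exact permutation test between arrays, adjusted p = 0.000622, and exact sign-flip test over steers, adjusted p = 0.0156, over 2 ratios). For bta-miR-301a over bta-miR-130a the depot difference was -0.31, lower in visceral fat in 5 of 8 steers, and did not pass (adjusted p = 0.402 and 0.539 by the same exact tests).

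Between diets bta-miR-130b was called higher in subcutaneous fat, by 1.01 (SE 0.12, limma adjusted p = 9.81e-09), with all control arrays at the common floor. It met the filter of detection on at least 8 arrays through high fat arrays alone, so the call is not independent of that filter. The limits of the control arrays bound this difference loosely, since 7 of 8 lay above that floor and 3 of 8 above the lowest high fat value, and with each at its own limit bta-miR-130b was at least 1.23-fold higher on the high fat diet. Its call ended with the deposited values and with the floor at the highest group median, at 0.12 and 0.09, and after normexp correction the difference was -2.03. The median of all miRNAs tested was -1.87 after that correction. In visceral fat every value stood at the floor on both diets. All 8 control limits lay above the highest high fat value, so the scaled levels could not show a difference there. With the percentile over all miRNAs and with normexp correction the visceral difference was -0.34 and -1.78, called lower, and without scaling 0.59, called higher. The median of all miRNAs tested was -1.86, -1.60 and 1.63 in these settings.

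The depot difference of bta-miR-130b on the high fat diet minus that on the control diet was -1.01 (SE 0.17, limma adjusted p = 0.000472), the 1 member called of the 3 tested. In this interaction 1.72% of all miRNAs tested were called, 0.429% higher and 1.29% lower. The control depots contribute a difference of 0 to it because bta-miR-130b was at the floor in both. A depot difference of the control diet under the limits of its arrays would not have been seen. In 3 of the 4 groups every value of bta-miR-130b was the floor itself, with an SD of 0.0, so the SE and the p-value of this interaction, and those of the diet and depot differences of bta-miR-130b, rest on values that the floor fixed. The call was lost with quantile normalization (-0.60), the deposited values, the highest floor and normexp correction, which gave 0.25 in the other direction. The median interaction of all miRNAs tested was 0.33 after normexp correction.

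Bta-miR-301a had a total intensity of 6.92 at the lowest, 10.9 at the median and 19.0 at the highest in high fat subcutaneous fat. In high fat visceral fat the 4 arrays with a call, of steers 103, 302, 411 and 412, had 5.81 to 17.0. Scaled, these were -7.87 to -6.58 and -7.35 to -6.59, and the depots overlapped. The visceral minus subcutaneous difference was 0.01 (SE 0.09, limma adjusted p = 0.989), with 5 arrays of each depot at the common floor. Between diets it was 0.14 in subcutaneous fat (SE 0.09, limma adjusted p = 0.173) and 0.15 in visceral fat (SE 0.09, limma adjusted p = 0.158), and no fold is given because the detection limits of all 8 control subcutaneous arrays lay above the median high fat value. Without scaling the diet differences passed, at 2.10 and 0.89 (limma adjusted p = 4.26e-08 and 0.00625), a scale on which the median of all miRNAs tested was 2.41 and 1.63. They passed in the other direction with the percentile over all miRNAs, at -0.29 in each depot (limma adjusted p = 0.000153 and 0.000165), and with normexp correction, at -2.23 and -1.78 (limma adjusted p = 5.49e-14 and 3.09e-11). The median of all miRNAs tested was -2.39 and -1.86 with that percentile and -1.87 and -1.60 with normexp correction. Relative to it bta-miR-301a was thus higher in the first setting and lower in the second.

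The signal of bta-miR-301a came from 1 of its 2 probes. That probe gave 6.92 to 19.0 on the high fat subcutaneous arrays and 1.31 to 17.0 on the visceral ones, against -0.901 to 0.485 and -0.655 to 0.350 on the control arrays (exact permutation test, two-sided, adjusted p = 0.000565 in each depot). The other probe lay between -2.18 and 0.301 in all 4 groups, had 0 of 80 spots well above background in each, and did not differ between diets (exact permutation test, adjusted p = 0.184 and 0.318). These probe signals are unscaled, so they hold the brightness of the array as well.

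**Figure D5:**
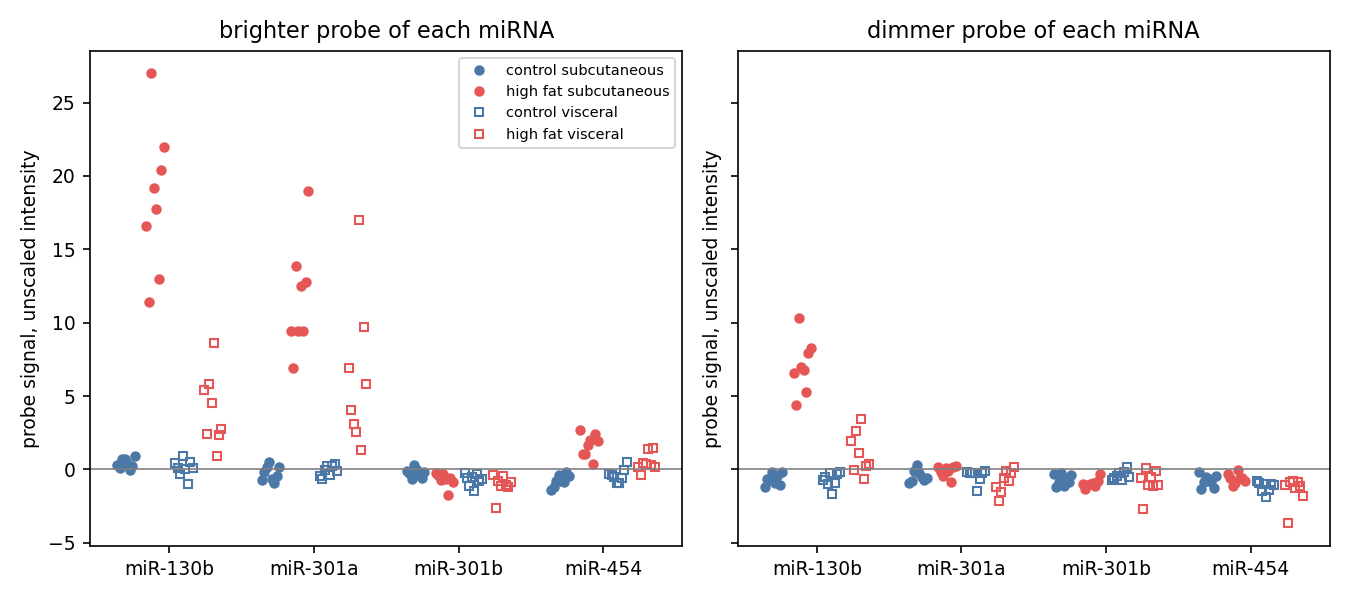
Unscaled signal of the 2 probes of 4 members on each array (y axis, intensity after background subtraction), the brighter probe on the left and the dimmer probe on the right, with control arrays in blue, high fat arrays in red, subcutaneous fat as filled circles and visceral fat as open squares. The brighter probes of bta-miR-130b and bta-miR-301a reach 27.0 and 19.0 in high fat subcutaneous fat, both probes of bta-miR-301b stay near 0, and the brighter probe of bta-miR-454 lies between 0.40 and 2.70 there.

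Bta-miR-301b and bta-miR-454, the neighbours of bta-miR-130b and bta-miR-301a, gave no detection call. The probes of bta-miR-301b lay between -2.71 and 0.337 over the 4 groups, and neither differed between diets past the test. The brighter probe of bta-miR-454 was between 0.401 and 2.70 on the high fat subcutaneous arrays against -1.38 to -0.184 on the control ones (exact permutation test, two-sided, adjusted p = 0.000565). In visceral fat it was -0.397 to 1.44 against -0.949 to 0.481 (exact permutation test, adjusted p = 0.0170). These signals are unscaled too and hold the brightness of the array. The brighter probe of bta-miR-454 had 0 of 80 spots well above background in each group. Per spot, its median of 2.69 in high fat subcutaneous fat stood beside a median of 2.04 for the 7 negative control probes, which were at 0.975 on the control subcutaneous arrays, and it was above every negative control probe on 2 of the 8 arrays. The other probe of bta-miR-454 stayed below 0 on every array.

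Among the 8 high fat subcutaneous samples, the only group in which 3 members had a call on every array, the scaled levels of bta-miR-130b and bta-miR-301a rose together (Pearson r = 0.83, exact permutation p = 0.00610, adjusted p = 0.0305 over 5 relations). Spearman's rho was 0.69 (exact permutation p = 0.0694, adjusted p = 0.173), and r was 0.62 without the 2 steers farthest from the median. With unscaled intensities r was 0.81 (exact permutation p = 0.0168, adjusted p = 0.0420) and rho 0.83 (exact permutation p = 0.0154, adjusted p = 0.0769). The values of a steer come from the same array and share its scale. Bta-miR-130a was not related to either, with r = -0.60 for bta-miR-130b (exact permutation p = 0.139, adjusted p = 0.231) and r = -0.23 for bta-miR-301a (exact permutation p = 0.582, adjusted p = 0.582), and the signs turned to 0.23 and 0.28 without the 2 farthest steers.

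The miRNAs whose scaled levels over the 32 arrays were most like that of bta-miR-130a, among the 91 detected on all arrays, were bta-miR-26b (r = 0.96), bta-miR-26a (r = 0.94), bta-miR-195 (r = 0.94), bta-miR-30b-5p (r = 0.93) and bta-miR-15a (r = 0.93), where the median over the 91 was -0.60. These values hold the difference between the diets. After the mean of each group was taken out, the most alike were bta-miR-26b (r = 0.86), bta-miR-126 (r = 0.78), bta-miR-195 (r = 0.78), bta-let-7g (r = 0.77), and bta-miR-26a (r = 0.76), against a median of 0.14. On the 16 high fat arrays alone bta-miR-26b and bta-miR-126 remained the 2 most alike, with r = 0.69 each, followed by bta-miR-29a (r = 0.68), bta-miR-497 (r = 0.64) and bta-miR-195 (r = 0.63). The points of each r share the scale of their array, and 4 control arrays entered at the floor for bta-miR-130a in the first 2 sets.

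MiR-27a and miR-27b, which have another seed and are also known to repress PPARG, rose on the high fat diet too. Bta-miR-27a-3p, detected on 7 of 8 control subcutaneous and 4 of 8 control visceral arrays, exceeded its control level by 3.53 (SE 0.66, limma adjusted p = 1.68e-05) in subcutaneous and by 4.17 (SE 0.66, limma adjusted p = 1.19e-06) in visceral fat with undetected arrays at the floor. Bta-miR-27b, detected on every array, was higher by 1.11 (SE 0.25, limma adjusted p = 0.000232) and by 1.12 (SE 0.25, limma adjusted p = 0.000199). In both depots their median was above that of all miRNAs tested in each of 18 alternatives, although with the percentile over all miRNAs 0 of the 2 were called higher and 1 lower in each depot, with a median of -1.64 and -0.96. With the deposited values and with the methods' Bonferroni correction 1 of the 2 was called higher in each depot. Between depots neither passed the test on the high fat diet, at -0.64 and -0.06 (limma adjusted p = 0.549 and 0.896).

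Of 15 miRNAs listed as restraining fat cell formation, a list that holds miR-27a and miR-27b but no member of the family, 3 rose and 7 fell with the high fat diet in each depot and 5 did not pass. Those higher were bta-let-7g, bta-miR-27a-3p and bta-miR-27b, and those lower were bta-let-7a to bta-let-7f and bta-miR-155. The median difference of this list was -0.34 in subcutaneous and -0.31 in visceral fat. Of 15 listed as promoting fat cell formation, 13 were higher and 1 lower in subcutaneous fat and 14 were higher and 0 lower in visceral fat, with medians of 1.78 and 1.47. With normexp correction the promoting list had 4 higher and 10 lower in subcutaneous and 4 higher and 8 lower in visceral fat, with medians of -0.67 and -0.39, and with the percentile over all miRNAs 2 higher and 8 lower and 1 higher and 8 lower, with medians of -2.37 and -2.77. Without scaling 13 of the restraining and 15 of the promoting list were higher in subcutaneous fat, so the direction of both lists depends on the scale. The median of the promoting list was above that of all miRNAs tested in 17 of 18 alternatives in visceral fat, the percentile over all miRNAs being the exception, and in 18 of 18 in subcutaneous fat. That of the restraining list was above it in 3 of 18 alternatives in each depot. These were no scaling, spike-ins and normexp correction, the last by 0.52 in subcutaneous and 0.36 in visceral fat.

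Markers of cell types moved with the diet as well. The 2 endothelial miRNAs, miR-126 and miR-126*, were both called higher on the high fat diet in both depots, with a median difference of 3.20 and 3.08. With the percentile over all miRNAs 1 was called higher and 1 lower in subcutaneous fat and 0 higher and 1 lower in visceral fat, and with normexp correction 1 higher and 1 lower in each. Their summed scaled intensity was 0.578 to 1.50 and 0.863 to 2.42 in control subcutaneous and visceral fat and 3.57 to 4.84 and 5.09 to 8.23 in the same depots of high fat steers. Of the 5 blood and immune miRNAs, miR-144 was too seldom detected to test, miR-451 and miR-142 were higher and miR-486 was lower in both depots, and miR-223 was lower in visceral fat. The summed level of that list overlapped between diets, at 0.226 to 0.409 against 0.255 to 0.995 in subcutaneous and 0.328 to 0.508 against 0.257 to 0.373 in visceral fat. Of the 5 miRNAs of smooth muscle and fibroblasts 3 were higher and 1 lower in each depot. Of the 3 adipocyte miRNAs, miR-103 and miR-143 were called higher in both depots. The other, miR-378, was called lower in subcutaneous fat and did not pass in visceral fat. The 4 skeletal muscle miRNAs summed to at most 0.228 and the 3 of kidney and liver to at most 0.463, and of the 4 of these that were tested miR-1 and miR-194 were called higher, while miR-206, miR-192 and miR-122 were too seldom detected to test. The part of these cell types in the levels of the family was not tested. Bta-miR-181a, the miRNA that the study used as its reference, had differences of -2.01 and -1.88 on the same scale, and scaled to it bta-miR-130a was higher by 4.96 and 5.35.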

How the data were processed

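Fat of 16 steers was measured on 32 Agilent miRNA arrays of 1 colour. The authors extracted intensities with Feature Extraction 10.7.3.1 and deposited, per array and not scaled between arrays, the background-subtracted intensity of each spot, the total signal per miRNA, set to 0.1 where it was not detected, and a detection call. A second table the authors deposited holds log2 values, described as scaled in GeneSpring by the 75th percentile, with values under 0 listed as 0. Its 244 numbered features that exceed 0 on some array were each matched to 1 miRNA, to within 1e-04. The values of only 18 of the 32 arrays were shifted from the log2 total signal. The other arrays, all on the control diet, hold unscaled log2 values there.

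Here each total signal was scaled to its array's 75th percentile, taken from the 91 miRNAs that every array detected. Scaled values under a common floor (log2 -7.22) were raised to it, and log2 was taken. The floor is the lowest scaled signal called detected on an array, as the median of the 32 arrays. Of 240 miRNAs detected on at least 8 arrays, those at the floor on every array were left out and 233 were tested with limma 3.58.1 in R 4.3.3 (4 groups in 1 fit, two-sided, Benjamini-Hochberg adjusted p under 0.05). Statements of at least a given fold set each array without a call to the higher of the lowest scaled signal called detected on it and the summed signal of the miRNA's own probes there (negative signals as 0). Fisher's exact test used scipy 1.17.1, and the exact permutation tests between arrays and the sign-flip tests were enumerated with numpy 2.4.6. The fit was tested on simulated data. Alternatives changed the scaling, background correction, floor, filter, test, blocks and the samples used. The members and the lists were chosen with earlier results of these data known. Besides the members the text names miR-181a, miR-27a and miR-27b, and the 5 miRNAs most like a member detected on at least 16 arrays, by Pearson's r of the levels and of their deviations from the group means. No 2 arrays held identical values.

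Both depots come from the same steer, so the steer numbers pair the samples. Deviations of the 2 depots from their group means correlated between -0.39 and 0.65 over the 16 steers, above 0.1 in 5. The number of arrays, 8 in each group, limits the precision, as does an array's detection limit where a miRNA is dim. The planned correlation between depots was limited to members detected on all arrays, which none was, and was run for bta-miR-130a on the high fat diet instead, a choice made after the data were seen, as were the ratios within an array, the single-probe tests and the relations between members.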

Additional observations from a re-analysis of the deposited data

Results flagged for a closer look

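In control subcutaneous fat the scaled level of bta-miR-130a stood apart in steer 405, at the common floor of -7.22 and the next sample at -5.35, since the array had no detection call for it. Its own detection limit was -5.00, above that next sample, so the distance is set by the floor. In high fat subcutaneous fat bta-miR-130b stood apart in steer 202, at -5.15 with the next sample at -6.10. In the same sample bta-miR-301a was the highest of its group, at -6.58, and bta-miR-130a the lowest, at -2.46. Of such values 7 sets of 8 were checked, and chance marks a sample in about 1 of 20 sets. The depot difference of bta-miR-130b on the high fat diet differed from that on the control diet by -1.01. The brighter probe of bta-miR-454, a miRNA without a detection call, had a mean unscaled signal of 1.65 ± 0.77 (SD, n = 8) on the high fat subcutaneous arrays and of -0.74 ± 0.41 (SD, n = 8) on the control ones.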

How the results depend on the processing

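Among the counts of members called, the diet difference in subcutaneous fat (2, both higher) became 1 with the deposited values and 1 with the floor at the highest group median, and 2 lower after normexp correction, while it was 3 higher without scaling, with spike-ins and with bta-miR-181a as the scale, and 1 higher and 1 lower with the percentile over all miRNAs. Without scaling, with spike-ins and with bta-miR-181a the median diet difference of all miRNAs tested was itself 2.41, 2.54 and 1.67 in subcutaneous fat. It was 1.63, 1.89 and 1.31 in visceral fat, so these larger counts are not particular to the family. The share of all miRNAs called is not given for the alternatives. In visceral fat the count of 1 became 3 without scaling and 3 with spike-ins, 2 with the median of the 91 miRNAs and 2 with bta-miR-181a as the scale, 2 with a floor at an intensity of 1 (1 higher, 1 lower), and 2, both lower, with the percentile over all miRNAs and after normexp correction. The depot difference on the high fat diet (1 lower) became 2 without scaling and 2 with spike-ins, 2 higher after normexp correction, and 0 with the deposited values and with the highest floor. The interaction (1) became 2 without scaling and 0 with quantile normalization, normexp correction, the deposited values and the highest floor. The control depot difference stayed at 0 members called by limma, with 0 at an unadjusted p under 0.05, and 0 by the methods' t-test. That test, with Bonferroni correction at their threshold and with Benjamini-Hochberg adjustment, gave 2, 1, 0 and 1 members called for the diets in subcutaneous and visceral fat and for the control and high fat depots, as many as limma.

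Directions turned as follows. With the percentile over all miRNAs the subcutaneous diet difference was -0.75 for bta-miR-130a and -0.29 for bta-miR-301a, and the visceral one -0.29 for bta-miR-301a. With normexp correction the diet difference was -2.03 for bta-miR-130b and -2.23 for bta-miR-301a in subcutaneous and -1.78 for bta-miR-301a in visceral fat, the high fat depot difference of bta-miR-130b 0.46, the control depot difference of bta-miR-130a 0.22, and the interaction -0.00033 for bta-miR-130a and 0.25 for bta-miR-130b. With a floor at an intensity of 1, bta-miR-301a had -0.84 between diets in visceral fat, -1.03 between high fat depots and -1.41 for the interaction. With spot intensities bta-miR-130a had 0.44 between control depots and -0.26 for the interaction. Between high fat depots, bta-miR-130a had -0.67 without scaling, -0.31 with spike-ins and -0.047 with bta-miR-181a, and bta-miR-301a -1.20, -0.95 and -0.67, and the interaction of bta-miR-301a took these same values while that of bta-miR-130a without scaling was -0.18. Of these, the differences of bta-miR-301a between diets with the percentile over all miRNAs and with normexp correction were called. So were the differences of bta-miR-130b between diets and between high fat depots with normexp correction. The high fat depot difference of bta-miR-301a was also called without scaling and with spike-ins, and its interaction without scaling. The cause of these changes was not tested.

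With the steer as a replicate block the high fat depot difference of bta-miR-130b was -1.01 (limma adjusted p = 2.92e-05), its interaction -1.01 (adjusted p = 0.00380), that of bta-miR-130a 0.20 between high fat depots and -0.44 between control depots, and the counts of members called 1 for the high fat depots, 1 for the interaction and 0 for the control depots. The block changed no call. Without control steer 108 in subcutaneous fat the counts were 2, 1, 0, 1 and 1 in the order diet in subcutaneous fat, diet in visceral fat, control depots, high fat depots and interaction. With only miRNAs detected on all arrays no member could be tested. By a deposited value above 0, bta-miR-130b was detected on 3 of 8 high fat subcutaneous and 0 of 8 visceral arrays and bta-miR-301a on 0 of 8 of each.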
